A study of Homo sapiens with 4 samples.

Results

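The ligands of the tumor necrosis factor (TNF) family, their receptors and the adaptors that carry their signals were compared between U937-AE and U937-Mt cells. Genes were taken by name: the symbols TNFSF and TNFRSF followed by a number, TRAF1 to TRAF7, and a set of relatives and adaptors under other names, TNF, LTA, LTB, LTBR, FAS, FASLG, CD27, CD70, CD40, EDAR, TRADD and FADD among them. This gave 51 of the 19775 genes named on the array, 48 of them protein-coding and 3 non-coding RNAs whose symbols start with that of a receptor gene. CD40LG, RIPK1, TRAF2, TNFSF12 and TNFRSF6B were not analysed here, because the annotation used names none of them as the single gene of a probe set.

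U937 is a human leukemia line of the monocytic lineage. U937-AE is a clone in which the mouse metallothionein promoter drives HA-tagged AML1/ETO, the fusion protein of the translocation between chromosomes that joins AML1 to ETO in acute myeloid leukemia. U937-Mt is a bulk population that carries the empty pSGMtNeo vector, and both lines received 100 µM ZnSO4 for 8 hours, so zinc itself is common to both. RNA of 3 extractions was pooled for each line and each pool was hybridized to 2 Affymetrix HG-U133 Plus 2.0 arrays, which makes 4 arrays in all. The labels call the 2 arrays of a line replicas, whereas the supplementary methods describe them as copies of 1 pool, so each line counts as 1 sample, no p-value between the lines can be given, and the induced protein and the choice of a clone cannot be told apart.

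TNF ligands are mostly membrane proteins that are made as trimers, some of them released by proteases, and each binds 1 or a few receptors. Receptors with a death domain recruit the adaptors TRADD and FADD and can lead to caspase activation, whereas the others bind TRAF proteins, several of which are ubiquitin ligases, and activate NF-kappaB and stress kinases. Decoy receptors bind ligand and pass on no death signal. Monocytes are a main source of TNF and respond to it through both TNF receptors.

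Signals are the linear intensities that GCOS, the Affymetrix software, gives for a probe set. Signals under the median of their array, the floor (119.5 and 129.7 on the U937-AE arrays, 146.8 and 153.6 on the U937-Mt arrays), were replaced by it ahead of the log2 step. Setting each U937-AE array against each U937-Mt array gives 4 comparisons, and a gene was called higher or lower when every one of them exceeded 1.5-fold the same way. The range over these 4 comparisons is given in brackets as the error. Because the floors differ, any gene under them on all 4 arrays is assigned a log2 difference of -0.27. Genes are termed measured if their mean log2 signal in 1 pool or both was no lower than the mean floor of that pool. In RNA of whole cultures, fewer cells that express a gene and less RNA of it per cell cannot be told apart.

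RUNX1T1 encodes ETO, and a probe set of it read 1362 and 1299 in U937-AE cells, against 8.6 and 7.6 in U937-Mt cells, a rise of at least 8.86-fold. Of its other 6 probe sets, 5 were under the floor throughout and the last one had 181.9 and 95.5 in U937-AE cells and 276.6 and 121.2 in U937-Mt cells, so the rise was seen by 1 probe set of 7. The correlation of log2 signals over all probe sets was 0.935 for the U937-AE copies, 0.919 for the U937-Mt copies and 0.910 to 0.916 for arrays of different lines. The 2 copies were over 1.5-fold apart for 4 members in U937-AE and 8 in U937-Mt cells. The U937-AE arrays had 6.60-fold brighter 18S rRNA controls, and the U937-Mt arrays had 1.27-fold brighter hybridization spike-ins. Of 12 listed myeloid markers, CD33 and CD68 were not named as the single gene of a probe set. Of the other 10, 4 (40.0%) were called lower in U937-AE (LYZ, ITGAM, MPO and SPI1), against 4.0% of all genes. PTPRC (10.0%) was called higher, against 1.70%, while CD14, ANPEP and FCGR1A exceeded the floor on no array. Of 5 T cell markers, CD3D, CD3E, CD3G and LCK did not exceed the floor on any array. CD2 did on all 4 (184.0 and 146.2 in U937-AE cells, 251.9 and 211.3 in U937-Mt cells) and was not called. No marker of B or erythroid cells was called, in lists of 4 and 3 genes that are too short to differ from the shares over all genes. Among NK cell markers, GNLY was at the floor on all 4 arrays and NKG7 was lower in U937-AE (127.1 and 24.1, against 882.8 and 1008 in U937-Mt cells). The summed signal of the myeloid list was 14376 to 15351 on the U937-AE arrays and 27521 to 28867 on the U937-Mt arrays. Without MPO the other 9 markers summed to 12818 to 13453 in U937-AE and 12750 to 12930 in U937-Mt cells, so the gap in the sum came from MPO. Differences among these 9 offset each other. PTPRC, the brightest, read 8183 and 7831 in U937-AE cells and 5113 and 5149 in U937-Mt cells. LYZ, ITGAM and SPI1 had log2 differences of -1.03, -1.11 and -1.47. NKG7 was the one NK cell marker of 4 that was called. NCAM1 read 1116.5 and 896.9 in U937-AE cells and 995.2 and 860.1 in U937-Mt cells (log2 difference 0.11), and KLRD1 had a log2 difference of -0.06. The sum without NKG7 was 1150 to 1292 in U937-AE and 1081 to 1185 in U937-Mt cells. The part of these shifts in the results on the TNF family was not tested.

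None of the 51 members was called higher in U937-AE, against 1.70% of all genes, and 6, or 11.8%, were called lower, against 4.0% of all genes. The 6 were the ligands TNFSF14, TNFSF10 and TNFSF4 and the receptors TNFRSF1A, TNFRSF1B and TNFRSF13B. The other 45 were not called, and 10 of these were at the floor on all 4 arrays. Over all 51 members and over all genes the median log2 difference was -0.27, the value assigned to genes under the floor on all 4 arrays. The floors set this tie, so it does not compare the members with other genes. Over the 38 measured members the median was -0.25, against -0.10 over the 12934 measured genes. The split depends on how the arrays are scaled. After quantile normalization 1 member was higher and 5 lower, against 1.89% and 3.09% of all genes. With arrays shifted to the same median 3 were higher and 2 lower, against 4.61% and 1.96% of all genes. With arrays scaled to the spike-ins 4 were higher and none lower, against 6.92% and 1.47% of all genes. On the log2 scale the median of the measured genes moves by 0.34 with the spike-ins, by 0.27 with equal medians and by 0.07 with quantile normalization. The log2 differences of the 6 members called lower were below 0 under each of these scalings. The smallest of them as deposited, -0.80 for TNFRSF13B, is larger in size than these shifts. The kept sign thus follows from the choice of called members and does not bear on stability.

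**Figure D1:**
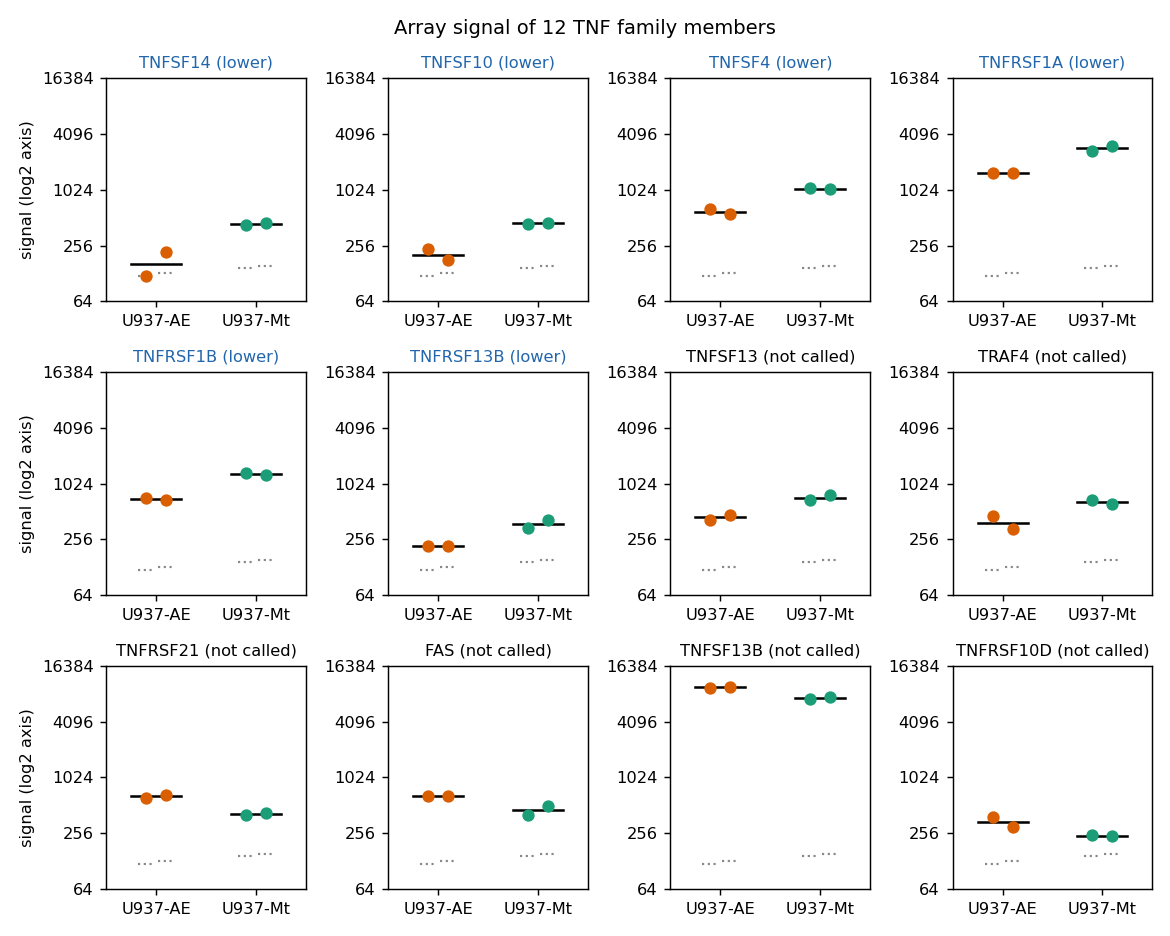
Array signal (y axis, log2 scale) of 12 members in U937-AE (orange) and U937-Mt (green), with 1 point for each of the 2 arrays of a pool, black lines at the mean of the log2 signals and dotted lines at the floor of each array. In the 6 panels marked lower both U937-AE points lie under both U937-Mt points, with TNFRSF1A at 1577 and 1568 against 2703 and 3042, and in the 4 panels of the bottom row both U937-AE points lie above both U937-Mt points without reaching a call.

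Among 15 ligands, 3 (20.0%) were called lower, against 4.0% of all genes, and none was called higher, against 1.70%. Over the 11 measured ligands the median log2 difference was -0.58, against -0.10 over all measured genes. It was -0.41 after quantile normalization, -0.31 with equal medians and -0.24 with the spike-ins, against -0.03, 0.17 and 0.24 over all measured genes. Of the ligand medians, -0.58, -0.31 and -0.24 are the values of FASLG, which counts as measured through its U937-Mt signals alone. Its U937-AE signals (57.0 and 108.1) were replaced by the floor, so these 3 medians depend on it. The ligands ranked beside FASLG as deposited, LTB and TNFSF9, exceeded the floor on all 4 arrays and had -0.59 and -0.52. TNFSF14, also known as LIGHT, a ligand of TNFRSF14 and LTBR, had signals of 121.5 and 215.6 in U937-AE cells, against 425.6 and 454.7 in U937-Mt cells. Both U937-AE arrays lay below both U937-Mt arrays, but the first U937-AE array was close to its floor, which makes this the widest spread among the called members. The difference was -1.44 on the log2 scale (-1.90 to -0.98), or 2.72-fold lower, and leaving out the first or the second U937-AE array gave -1.03 or -1.86. The second probe set of TNFSF14 was at the floor on all 4 arrays, and with the mean over both probe sets the gene was not called (log2 difference -0.86).

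TNFSF10, the death ligand TRAIL, had 232.6 and 179.3 in U937-AE cells and 440.8 and 449.8 in U937-Mt cells. The U937-Mt copies nearly coincided and the groups did not overlap. The gene was 2.18-fold lower (log2 difference -1.12, -1.33 to -0.92). A second probe set gave 81.0 and 145.2 in U937-AE cells, the first of these at the floor, against 217.8 and 216.9 in U937-Mt cells, and was not called (log2 difference -0.72, -0.87 to -0.58).

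TNFSF4, the ligand of the T cell receptor OX40, had 632.2 and 561.1 in U937-AE cells and 1069 and 1044 in U937-Mt cells. All 4 arrays were well above their floors and the groups did not overlap. It was 1.77-fold lower (log2 difference -0.83, -0.93 to -0.72) on its single probe set.

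The sequences before the start of called members are shown because AML1, the DNA-binding partner in the fusion, recognizes TGTGGT and TGCGGT. RefSeq promoters (GRCh38.p14), cut to the 250 bases before the annotated start, were searched on both strands. Of 35116 such windows, 16.3% held at least 1 of these motifs and 11.0% held TGTGGT. A window was found for 35 members, of which 8 held a motif, and for all 6 called members, of which 1 did. That window is the one of TNFSF4 at chr1:173205533-173205782 on the minus strand, where TGTGGT lies on the opposite strand and its complement starts 64 bases before the start (in capitals). The window of TNFSF14 at chr19:6670161-6670410, also on the minus strand, held neither motif. A match or its absence describes these letters only and says nothing about binding. Each sequence is given 5′ to 3′ in the direction of transcription.
TNFSF4: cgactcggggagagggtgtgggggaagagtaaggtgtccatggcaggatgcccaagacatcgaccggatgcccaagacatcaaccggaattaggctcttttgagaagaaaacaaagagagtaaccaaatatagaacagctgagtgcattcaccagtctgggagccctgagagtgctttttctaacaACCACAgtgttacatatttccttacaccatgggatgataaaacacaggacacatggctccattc
TNFSF14: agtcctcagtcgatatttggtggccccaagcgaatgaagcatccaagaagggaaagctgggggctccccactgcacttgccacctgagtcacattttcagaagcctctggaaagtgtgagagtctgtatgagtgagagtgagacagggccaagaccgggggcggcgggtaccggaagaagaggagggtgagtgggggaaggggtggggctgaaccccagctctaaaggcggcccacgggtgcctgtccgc

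Other measured ligands were not called. TNFSF13, also known as APRIL, had 417.0 and 472.2 in U937-AE cells and 674.1 and 774.2 in U937-Mt cells, so the groups did not overlap, and its log2 difference was -0.70 (-0.89 to -0.51). LTB, which forms a membrane trimer with LTA, had 303.9 and 305.9 in U937-AE cells and 602.3 and 349.1 in U937-Mt cells, a log2 difference of -0.59 (-0.99 to -0.19) that was smaller than the gap between the U937-Mt copies. FASLG, the ligand of FAS, stayed under the floor on the U937-AE arrays (57.0 and 108.1) and exceeded it on the U937-Mt arrays (225.2 and 154.1). The log2 difference of -0.58 is thus a bound, and the single comparisons ran from 1.19-fold to 1.88-fold. TNFSF9 and CD70, ligands of receptors on activated lymphocytes, had log2 differences of -0.52 and -0.45, and for each of them 1 U937-Mt array lay between the U937-AE arrays.

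TNFSF13B, also known as BAFF, a survival factor of B cells made by myeloid cells, had the narrowest range of any measured member. Its signals were 9553 and 9714 in U937-AE cells and 7167 and 7517 in U937-Mt cells. Both U937-AE arrays lay above both U937-Mt arrays, and the log2 difference was 0.39 (0.35 to 0.44), or 1.31-fold, short of a call. A second probe set gave 8288 and 8650 in U937-AE cells and 6723 and 6639 in U937-Mt cells, a log2 difference of 0.34. TNFSF15, with 154.9 and 250 in U937-AE cells and both U937-Mt arrays at the floor, and TNFSF18 had log2 differences of 0.39 and 0.21 and were not called.

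TNF itself was at the floor on 3 of the 4 arrays. Its signals were 108.6 and 123.3 in U937-AE cells, both at the floor, and 204.0 and 91.2 in U937-Mt cells, of which the second was at the floor. The mean did not reach the floor in either pool, so no fold is given. LTA, TNFSF8 and TNFSF11 were at the floor on all 4 arrays.

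Of 7 receptors with a death domain, 1 (14.3%) was called lower, against 4.0% of all genes, and none higher, against 1.70%. TNFRSF1A, the receptor through which soluble TNF signals in most cells, had 1577 and 1568 in U937-AE cells and 2703 and 3042 in U937-Mt cells. The U937-AE copies agreed closely and lay well below both U937-Mt arrays. It was 1.82-fold lower (log2 difference -0.87, -0.96 to -0.78). Its promoter window, chr12:6342077-6342326 on the minus strand, is printed with that of the other TNF receptor, TNFRSF1B, at chr1:12166741-12166990 on the plus strand, because both receptors bind TNF and both were called lower. Neither window held TGTGGT or TGCGGT. They differed in composition, with 4 CpG dinucleotides and a GC content of 56.8% for TNFRSF1A and 22 CpG dinucleotides and 72.4% for TNFRSF1B, against medians of 11 and 58.0% over all windows.
TNFRSF1A: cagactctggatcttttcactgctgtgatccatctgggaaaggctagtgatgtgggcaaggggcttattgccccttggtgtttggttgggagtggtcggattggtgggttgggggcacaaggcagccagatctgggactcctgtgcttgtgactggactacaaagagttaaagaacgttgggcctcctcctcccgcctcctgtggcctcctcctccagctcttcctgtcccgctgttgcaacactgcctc
TNFRSF1B: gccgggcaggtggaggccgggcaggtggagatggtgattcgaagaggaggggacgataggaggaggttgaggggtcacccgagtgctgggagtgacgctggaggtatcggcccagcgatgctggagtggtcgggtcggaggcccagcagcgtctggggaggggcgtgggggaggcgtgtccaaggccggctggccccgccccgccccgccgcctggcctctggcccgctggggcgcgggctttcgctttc

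FAS, the receptor of FASLG, had 652.8 and 653.2 in U937-AE cells and 407.1 and 502.9 in U937-Mt cells. The groups did not overlap and the log2 difference was 0.53 (0.38 to 0.68), which was not called. Its other 4 probe sets disagreed in sign: 3 had log2 differences of 0.20, 0.29 and 0.70 and the last one -0.50, and none was called. TNFRSF21, also known as DR6, had 613.5 and 667.7 in U937-AE cells and 401.5 and 426.6 in U937-Mt cells, so that the mean was 1.55-fold higher but the lowest single comparison was 1.44-fold (log2 difference 0.63, 0.52 to 0.73). Its second probe set gave 349.9 and 330.3 in U937-AE cells and 249.1 and 208.0 in U937-Mt cells, a log2 difference of 0.58.

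TNFRSF10B, a receptor of TRAIL, had 1102 and 1344 in U937-AE cells and 1045 and 1411 in U937-Mt cells, and the groups overlapped (log2 difference 0.00, -0.36 to 0.36). A dimmer probe set of the gene gave 183.0 and 198.3 in U937-AE cells and 341.9 and 440.8 in U937-Mt cells, which would be a call of lower (log2 difference -1.03), and another had -0.53, so the probe sets of TNFRSF10B disagree. TNFRSF25, a receptor of TNFSF15, differed between the copies of U937-AE, at 93.6, which is at the floor, and 384.4, against 385.8 and 599.6 in U937-Mt cells (log2 difference -1.17, -2.33 to -0.01). EDAR, the ectodysplasin receptor, had a log2 difference of -0.29. TNFRSF10A, the other TRAIL receptor with a death domain, did not reach the floor on average in either pool.

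None of 3 decoy receptors was called, against 4.0% of all genes called lower and 1.70% higher. TNFRSF10D, which binds TRAIL, had 381.1 and 296.9 in U937-AE cells and 245.0 and 236.8 in U937-Mt cells, with no overlap and a log2 difference of 0.48 (0.28 to 0.69). TNFRSF10C, another decoy of TRAIL, stayed under the floor on 3 arrays, all but the second of U937-Mt. TNFRSF11B, or osteoprotegerin, was at the floor on all 4. Of TRAIL and its receptors, the ligand TNFSF10 was the one gene called on its brightest probe set.

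Of 15 receptors that bind TRAF proteins without a death domain, 2 (13.3%) were called lower, against 4.0% of all genes, and none higher, against 1.70%. The median log2 difference over the 10 measured ones was -0.24, and 4 were at the floor on all 4 arrays. TNFRSF1B, the TNF receptor that leukocytes carry and that binds membrane TNF best, had 715.3 and 680.2 in U937-AE cells and 1325 and 1274 in U937-Mt cells. Copies lay close together and the groups were clearly separate. It was 1.86-fold lower (log2 difference -0.90, -0.96 to -0.83), with the narrowest range of the called members.

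TNFRSF13B, also known as TACI, a receptor of BAFF and APRIL known mainly from B cells, had 219.2 and 216.4 in U937-AE cells and 342.8 and 418.9 in U937-Mt cells. The groups did not overlap and the gene was 1.74-fold lower (log2 difference -0.80, -0.95 to -0.65). TNFRSF13B was not called after quantile normalization (log2 difference -0.62). The other receptors of this pair of ligands, TNFRSF13C and TNFRSF17, stayed under the floor throughout. Of 4 B cell markers, none was called, against 4.0% of all genes called lower and 1.70% higher. MS4A1 and PAX5 were at or close to the floor, and CD79A had 1051 and 830.6 in U937-AE cells and 1000.1 and 987.8 in U937-Mt cells. CD79B had a log2 difference of 0.62 and was called higher with arrays scaled to the spike-ins.

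CD40, a receptor of antigen-presenting cells, had 603.4 and 669.1 in U937-AE cells and 879.2 and 689.4 in U937-Mt cells. The groups did not overlap, but the closest arrays were 1.03-fold apart, and the log2 difference was -0.29 (-0.54 to -0.04). LTBR, the receptor of LTB and TNFSF14, had overlapping groups (493.1 and 417.8 in U937-AE cells, 325.5 and 491.0 in U937-Mt cells, log2 difference 0.18), and its second probe set had -0.70 and was not called. TNFRSF12A, also known as Fn14, had 189.5 and 254.8 in U937-AE cells and 102.7 and 416.4 in U937-Mt cells, so its difference of -0.17 lay inside the spread between the U937-Mt copies. CD27, TNFRSF8, TNFRSF14, TNFRSF18 and TNFRSF4 had log2 differences from -0.53 to 0.12, and none was called. TNFRSF9, TNFRSF11A and TNFRSF19 did not reach the floor on average in either pool.

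**Figure D2:**
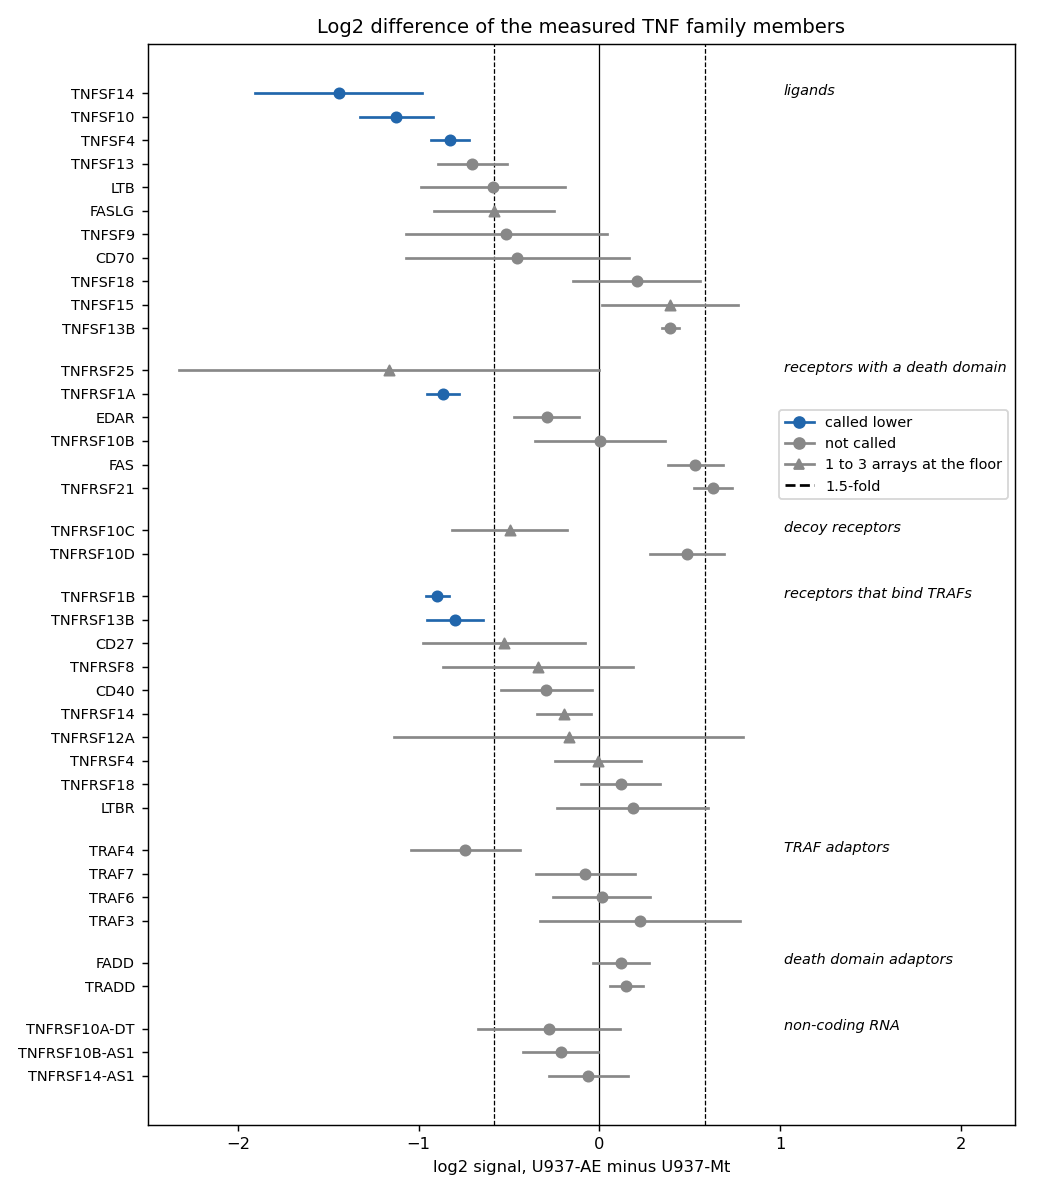
Log2 difference (x axis, U937-AE minus U937-Mt) of the 38 measured members by role, with points at the difference of the mean log2 signals, lines over the 4 comparisons of single arrays and dashed lines at 1.5-fold. The 6 blue members are those called lower, their lines all lie left of the dashed line, and triangles mark members with 1 to 3 arrays at the floor, among them TNFRSF25 with the widest line (-2.33 to -0.01).

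No adaptor was called among the 6 TRAF genes, TRADD and FADD, against 4.0% of all genes called lower and 1.70% higher. In a list this short a count of none is near those shares. TRAF4 had 456.3 and 328.8 in U937-AE cells and 678.2 and 619.9 in U937-Mt cells. The groups did not overlap, with a log2 difference of -0.74 (-1.04 to -0.44) that missed the call in the closest comparison at 1.36-fold. Another probe set of TRAF4 gave 135.5 and 135.8 in U937-AE cells and 252.2 and 244.3 in U937-Mt cells and met the rule for lower (log2 difference -0.87, -0.90 to -0.85), and the remaining 2 had -0.64, with both U937-AE arrays at the floor, and -0.46.

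TRAF6, a ubiquitin ligase shared with the interleukin-1 and Toll-like receptor pathways, had 363.2 and 506.6 in U937-AE cells and 417.1 and 433.7 in U937-Mt cells (log2 difference 0.01). TRADD, the adaptor of TNFRSF1A, had 732.2 and 738.6 in U937-AE cells and 625.7 and 704.4 in U937-Mt cells (log2 difference 0.15), and a dimmer probe set of it had -0.11. FADD, the adaptor that binds caspase-8, had 1248 and 1091 in U937-AE cells and 1032 and 1120 in U937-Mt cells (log2 difference 0.12). For TRAF6 and FADD the groups overlapped, and for TRADD the closest arrays were 1.04-fold apart. TRAF3, an inhibitor of noncanonical NF-kappaB signaling, had 791.2 and 717.9 in U937-AE cells and 900.8 and 461.0 in U937-Mt cells, with the U937-Mt copies on either side of the U937-AE arrays. TRAF7 had a log2 difference of -0.08, and TRAF1 and TRAF5 were at the floor on all 4 arrays. The non-coding RNAs TNFRSF10A-DT, TNFRSF10B-AS1 and TNFRSF14-AS1 had log2 differences of -0.28, -0.22 and -0.06.

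The 51 members were read by 107 probe sets with 1 gene symbol, of which 58 were measured, 8 met the rule for lower and none that for higher. The shares over all probe sets were not computed, so these counts cannot be set against those of other genes. The 8 are 1 each of the 6 called genes and those of TNFRSF10B and TRAF4 above. Single probe sets stand behind 19 members, among them TNFRSF1A, TNFRSF1B, TNFSF4 and TNFRSF13B, so for these genes no second reading exists. Another 8 probe sets hold a member symbol among several symbols and were not assigned to any gene.

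Several members lie next to each other in the genome. Of the called ones, TNFSF14, TNFSF4, TNFRSF1B and TNFRSF1A had nearby members, which were not called, and TNFSF10 and TNFRSF13B had none. TNFSF14 follows CD70 and TNFSF9 on chromosome 19, with log2 differences of -1.44, -0.45 and -0.52. TNFSF4 follows TNFSF18 and FASLG on chromosome 1, where TNFSF18 had 0.21. TNFRSF1B lies beside TNFRSF8 on chromosome 1 (-0.90 and -0.34), and TNFRSF1A is separated by 1 coding gene from LTBR on chromosome 12 (-0.87 and 0.18). No gene was called in the cluster of LTA, TNF and LTB on chromosome 6 or in that of the 4 TRAIL receptors on chromosome 8. None of these neighboring pairs had both members called, but with 4.0% of all genes called lower and 1.70% higher such a pair would be rare anyway.

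Quantile normalization moved single members either way (TNFRSF1A to -0.92 and TNFSF13B to 0.33 on the log2 scale), whereas the other scalings raised the log2 differences of members above the floor. With arrays scaled to the spike-ins, TNFSF14 had a log2 difference of -1.10, TNFSF10 of -0.78, TNFRSF1B of -0.55, TNFRSF1A of -0.52, TNFSF4 of -0.48 and TNFRSF13B of -0.46, and none of them was called. TNFRSF21 (0.97), FAS (0.87), TNFRSF10D (0.83) and TNFSF13B (0.74) were called higher. With arrays shifted to the same median, TNFSF14 (-1.17) and TNFSF10 (-0.85) were called lower, and TNFRSF21 (0.90), FAS (0.80) and TNFSF13B (0.66) higher. No member was called in opposite directions under different scalings, but the shifts between scalings are too small to turn a call around. Over the measured members the median was -0.25 as deposited, -0.06 after quantile normalization, 0.02 with equal medians and 0.10 with the spike-ins. Over all measured genes it was -0.10, -0.03, 0.17 and 0.24 in the same order, so the members lay below it each time.

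**Figure D3:**
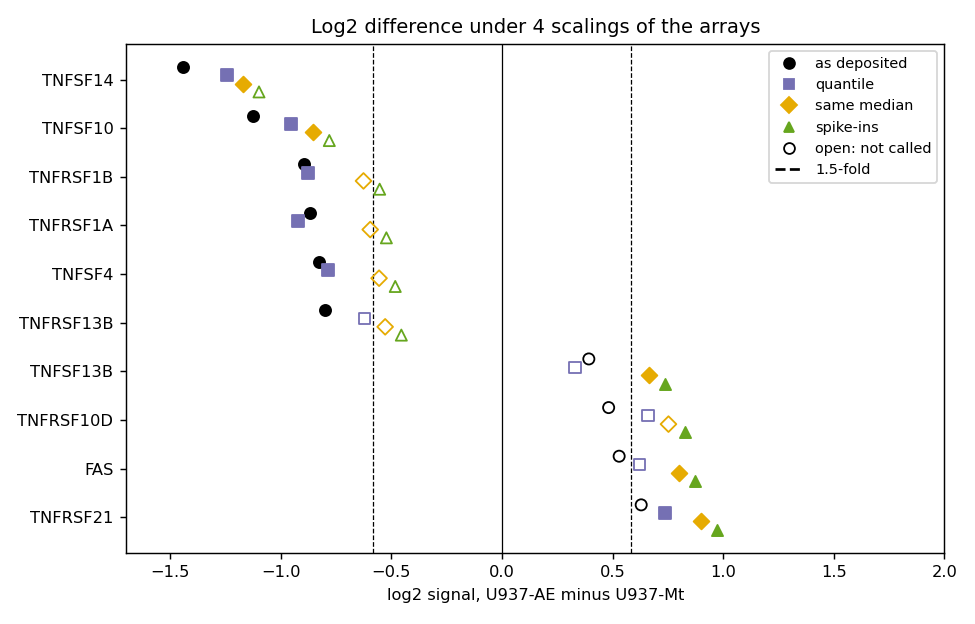
Log2 difference (x axis, U937-AE minus U937-Mt) of the 6 members called lower and 4 members called higher under another scaling, with 1 symbol for each of 4 scalings, filled where the member was called and open where it was not, and dashed lines at 1.5-fold. The points of each member keep to 1 side of 0, which follows largely from the choice of called members. From the deposited scale (TNFSF14 at -1.44, TNFRSF21 at 0.63) to the spike-ins (-1.10 and 0.97) they lie farther right.

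Other genes of the pathway were read from 6 lists. Of 76 genes on the array, 4 were called higher and 7 lower in U937-AE, which is 5.26% and 9.21%, against 1.70% and 4.0% of all genes. With arrays shifted to the same median 5 were higher and 5 lower, against 4.61% and 1.96% of all genes, and with arrays scaled to the spike-ins 11 were higher and 4 lower, against 6.92% and 1.47%. Among 22 ubiquitin ligases and kinases of the receptor complex, 1 (4.55%) was called lower and 1 (4.55%) higher, against 4.0% and 1.70% of all genes. TNFAIP3, the A20 deubiquitinase that ends TNF signals, had 1024 and 893.8 in U937-AE cells and 2052 and 2331 in U937-Mt cells and was 2.29-fold lower (log2 difference -1.19). CHUK, the kinase IKK-alpha, had 1314 and 1310 in U937-AE cells and 701.2 and 855.8 in U937-Mt cells and was 1.69-fold higher (log2 difference 0.76, 0.61 to 0.91). The other 20 were not called, MAP3K14 with -0.93 and MAP3K5 with 0.63 among them.

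None of 9 genes of death signaling, CASP8, CFLAR and RIPK3 among them, was called, against 4.0% of all genes called lower and 1.70% higher. In a list this short a count of none is near those shares. CASP8 was called higher with arrays scaled to the spike-ins. Among 8 NF-kappaB factors and inhibitors, only NFKBIA (12.5%), the inhibitor that holds NF-kappaB in the cytoplasm, was called, against 4.0% of all genes called lower. It had 598.4 and 522.2 in U937-AE cells and 1629 and 1570 in U937-Mt cells, which is 2.86-fold lower (log2 difference -1.52, -1.64 to -1.39). NFKB1, NFKB2, RELA, RELB and REL had log2 differences from -0.51 to -0.03. TRAF3IP3, a TRAF3-binding protein, was the one of 6 TRAF-interacting proteins (16.7%) that was called, against 4.0% of all genes called lower. It had 524.9 and 614.3 in U937-AE cells and 1179 and 1158 in U937-Mt cells, 2.06-fold lower, and was not called with arrays scaled to the spike-ins (log2 difference -0.70). LITAF, a lysosomal membrane protein first described as a regulator of TNF transcription, had 1313 and 1358 in U937-AE cells and 2870 and 2803 in U937-Mt cells and was 2.12-fold lower. ADAM17, the protease that sheds TNF and its receptors, had a log2 difference of 0.28 and was not called. TNFAIP3, NFKBIA and LITAF were called lower, and CHUK higher, under each of the 4 scalings.

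Genes that TNF is known to induce went both ways. Of 24, 3 (12.5%) were called higher, against 1.70% of all genes, and 3 (12.5%) lower, against 4.0%, and 7 were at the floor on all 4 arrays. CXCL8, the neutrophil chemokine interleukin-8, had 2252 and 2195 in U937-AE cells and 356.5 and 390.0 in U937-Mt cells, which is 5.96-fold higher (log2 difference 2.58, 2.49 to 2.66). CXCL10, an interferon-induced chemokine, had 1057 and 913.8 in U937-AE cells and 189.2 and 143.2 in U937-Mt cells, the last of these at the floor, and was 5.76-fold higher. PLAU, the urokinase gene, was 1.96-fold higher. TNFAIP8, a regulator of cell death, was 2.05-fold lower, TNFAIP2 2.02-fold and IL1B, the cytokine interleukin-1 beta, 1.86-fold, and TNFAIP2 and IL1B were not called with arrays shifted to the same median or scaled to the spike-ins. TNFAIP3 and NFKBIA, in the lists above, are also known to be induced by TNF.

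**Figure D4:**
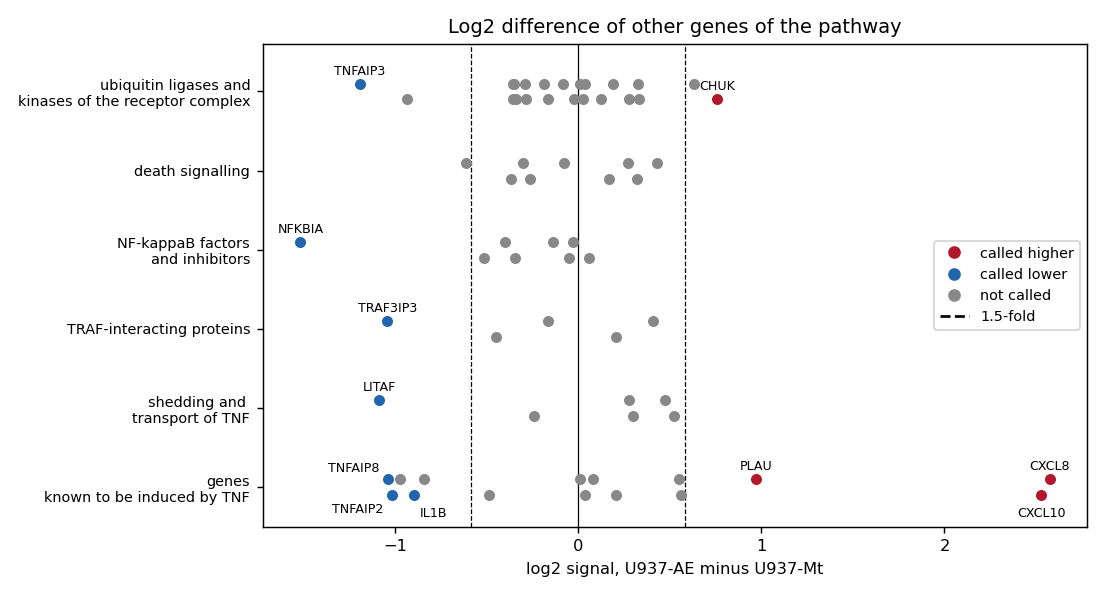
Log2 difference (x axis, U937-AE minus U937-Mt) of the measured genes of 6 pathway lists (rows), 1 point per gene, red where called higher, blue where called lower and gray where not called, with dashed lines at 1.5-fold. CXCL8 and CXCL10, at 2.58 and 2.53, stand far to the right, and NFKBIA and TNFAIP3, at -1.52 and -1.19, farthest to the left.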

How the data were processed

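RNA pools of U937-AE and U937-Mt cells were measured on 4 Affymetrix HG-U133 Plus 2.0 arrays. The authors deposited 1 linear signal intensity per probe set and array, computed with GCOS at default parameters, a step that subtracts background, weighs perfect match against mismatch probes and brings every array to 1 trimmed mean. Its version was not given in the sources used. Precision is limited by the number of arrays, and differences between copies show the error of hybridization alone.

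From the deposited intensities, 41097 of 54675 probe sets had 1 gene symbol, which was updated through the gene identifier for 41043 and gave 19775 genes, and 1801 had several symbols. The probe set with the highest average unfloored log2 signal stood for its gene. Folds are those between mean log2 values, and lower bounds where the dimmer pool had both its arrays at the floor. Control probe sets were left out of the floor. The rule was tested on simulated data.

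Members and lists were chosen with earlier results of these data known. Signals on each array are given for called members, for measured members whose means differ by 1.5-fold or more and for central genes of the pathway whatever their values (TNF, its receptors, FAS, TNFSF10, CD40, TRAF6, TRADD and FADD). Values are also given for other members and second probe sets where copies or probe sets disagree, chosen after their values were seen, as were TNFSF13B, TNFRSF10D and the genes named without a call. Called pathway genes are named, and among genes induced by TNF the 5 with the largest differences, to which IL1B was added after its values were seen.

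Alternatives were 3 other scalings, 3 other floors, a 2-fold rule, a rule on means, limma, the methods' t-test, a replicate block, the mean over probe sets, probe sets free of cross-hybridization suffixes, and omission of single arrays. Software was limma 3.58.1 in R 4.3.3, and, in Python 3.11.15, pandas 2.3.3, numpy 2.4.6, matplotlib 3.10.9 and scipy 1.17.1.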

Additional observations from a re-analysis of the deposited data

How the results depend on the processing

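Members called higher and lower numbered 0 and 6. They were 1 and 5 with quantile normalization, 3 and 2 with equal medians, 4 and 0 with the spike-ins, 1 and 8 without a floor, 0 and 8 after lowering it to the 25th percentile, 0 and 3 after raising it to the 75th, 0 and 0 at 2-fold, 1 and 10 by the mean above 1.5-fold, 1 and 7 by limma with an adjusted p under 0.05, 0 and 1 by the methods' t-test with 2-fold and 0 and 0 after Benjamini-Hochberg, 0 and 5 over the mean of all probe sets, and 0 and 4 without the suffixes _x_at and _s_at, where TNFRSF1A and TNFSF4 have no other probe set. Leaving out an array gave 1 to 2 higher and 7 to 13 lower, 13 without the first U937-Mt array. With fewer comparisons to pass, no call can be lost, so these counts do not bear on stability. The floor at the 75th percentile kept TNFRSF1A, TNFRSF1B and TNFSF4. With no floor TRAF5, at the floor on all 4 arrays, had a log2 difference of 1.96.

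The median over members, -0.27, was 0.0 with quantile normalization or equal medians, 0.073 with the spike-ins, -0.10 with the floor at the 75th percentile and -0.33 to -0.21 with an array left out. Over all genes, 336 were higher and 791 lower (70.2% of calls), against 374 and 611 with quantile normalization (62.0%), 911 and 387 with equal medians (29.8%), 1369 and 290 with the spike-ins (17.5%), 577 and 1687 without a floor, 98 and 263 at 2-fold, 624 and 1806 by the mean, 131 and 385 by the methods' t-test and 0 and 0 after Benjamini-Hochberg. Limma gave 513 higher and 1142 lower, the mean of all probe sets 186 and 580, and probe sets without the suffixes 264 and 605. The floor gave 455 and 1345 at the 25th and 240 and 373 at the 75th percentile. Leaving out an array gave 456 to 557 higher and 1137 to 1591 lower.

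Same-numbered arrays deviated together at r = 0.0491 over 2 pairs, which shows no pairing by array number. With 2 copies of 1 pool per line, this value cannot exclude a batch that the numbers share. With the number as a replicate block, limma called 1 member higher and 9 lower, and 570 and 1433 genes. P-values of limma and of the t-test cover the spread between array copies only. Signals near the floor, as for TNF, FASLG and the first U937-AE array of TNFSF14, limit what these arrays can show.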
